A study of Mus musculus with 15 samples.

Results

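The dorsal midbrain was compared with the alar plate in 6 RNA-seq libraries out of the 15 of a series on brain regions of the mouse embryo at stage E12.5, mid-gestation. Dorsal midbrain 1, 2 and 3 were set against alar plate 1, 2 and 3, chosen by the region named in the labels. All came from C57bl/6 mice that expressed GFP from the Th promoter, a reporter of the gene for tyrosine hydroxylase, and no treatment was named. Tissue was dissected under a microscope, and each library was made from 200 ng of RNA. For the alar plate, the labels give no rostro-caudal level, and no label ties the samples of a group to different embryos. The p-values therefore reflect how far these samples scatter, a scatter that can be technical.

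The alar plate is the dorsal part of the embryonic neural tube wall, and the dorsal midbrain is itself an alar territory, from which the colliculi (the tectum) form. Along its dorsal midline the roof plate secretes Wnt and BMP ligands, which pattern the adjoining wall and keep progenitors dividing. Progenitors line the ventricle, and neurons that have left the cell cycle gather outside them, so a dissected piece of wall holds a mixture of dividing cells and young neurons. In such bulk tissue, fewer cells of a type and less RNA per cell cannot be told apart.

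Expression was given as RPKM, read numbers scaled to gene-model length and sequencing depth, for 24264 genes. The comparison used the 12950 genes with at least 1 RPKM in at least 3 of the 6 libraries, which lets in genes seen in only 1 of the groups. Where a gene reached 1 RPKM in only 1 group, its direction and lack of overlap followed from this filter. Differences are dorsal midbrain minus alar plate on log2(RPKM + 1), with the standard error (SE) of the limma fit, and this scale understates the change of weakly expressed genes. The 6 libraries held between 10228614 and 13621994 mapped reads, as implied by the steps in the RPKM values. A count of 3 reads in a typical gene (median length 2858 bases) was worth 0.077 to 0.103 RPKM, a floor for counting error only.

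In each group 1 library stood apart. Dorsal midbrain 1 and 2 correlated across genes with a Pearson r of 0.994. Dorsal midbrain 3 had r = 0.964 and 0.968 with them, against 0.976 with alar plate 1 and 0.972 with alar plate 2. Alar plate 1 and 2 had r = 0.987, and alar plate 3 had 0.918 to 0.927 with each of the other 5. By these values dorsal midbrain 3 was closer to the first pair of alar plate libraries than to its own group, and among all 15 libraries its highest r, 0.978, was with forebrain 1. In the 4721 genes called between the libraries numbered 1 and 2 alone, dorsal midbrain 3 lay nearer to dorsal midbrain 1 and 2 in 1220 genes (25.8%), and alar plate 3 in 2617 (55.4%). In most of these genes, then, each apart library lay nearer to the pair of the other group. Alar plate 3 carried a steeper trend of RPKM with gene length than the others, in the same direction. With genes split by length into 4 equal bins, its median RPKM in the shortest bin was 2.86 times that in the longest, against 1.15 to 1.26 times in the other 5 libraries. Both apart libraries also differed from their pairs in sex-linked RNA. Xist, the RNA that coats the inactive X chromosome of females, measured 78.7, 75.2 and 0.154 RPKM in the dorsal midbrain, against 71.2, 57.2 and 0.13 RPKM in the alar plate. The Y-linked gene Eif2s3y measured 0, 0 and 26.2 RPKM in the dorsal midbrain, against 0.0785, 0 and 24.8 RPKM in the alar plate. The libraries numbered 3 were thus the Xist-low, Eif2s3y-high library of each group, as they were in the ventral midbrain, forebrain and hindbrain, where Xist was 0.217, 0.096 and 0.216 RPKM in number 3 and 55.1 to 88.4 RPKM in numbers 1 and 2. A fit with a term for these libraries called no gene. That term marks the apart libraries themselves, so it cannot separate sex from anything else that sets them apart. Whether the sex of the embryos bears on the differences below was not tested.

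**Figure D1:**
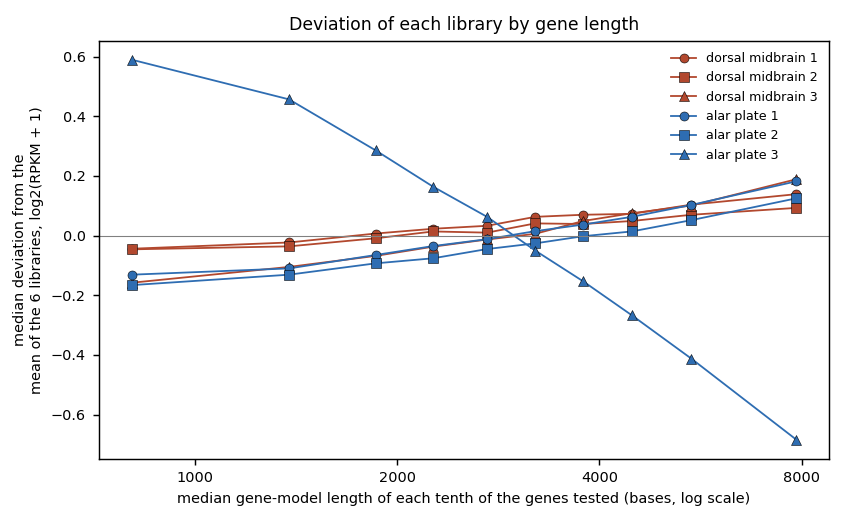
Median deviation of each library from the mean of the 6, in log2(RPKM + 1), for 10 equal bins of the tested genes ordered by gene-model length in bases (log axis). Dorsal midbrain libraries are in red and alar plate libraries in blue. Alar plate 3 runs from 0.59 in the shortest bin to -0.684 in the longest, across the flatter lines of the others, which slope the other way. The mean includes alar plate 3, so its fall by itself tilts the other lines upward.

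The labelled regions were checked against marker genes. Otx2, the homeobox factor of forebrain and midbrain, measured 156, 161 and 80.1 RPKM in the dorsal midbrain, against 82.8, 81.1 and 59.1 RPKM in the alar plate. The dorsal paired-box gene Pax7 measured 36.8, 40.4 and 18.3 RPKM in the dorsal midbrain, against 13.5, 19.6 and 4.22 RPKM in the alar plate. Hoxa2, a hindbrain gene, was at 0 in all 6 libraries, no Hox gene of the hindbrain list exceeded 0.251 RPKM, and the floor plate gene Foxa2 was at or below 0.0722 RPKM in each. Shh, the floor plate ligand, was at most 0.0626 RPKM in the dorsal midbrain and reached 2.12 RPKM in alar plate 3. Other genes of the floor plate and ventral midbrain list were present, and the list summed to 39.2, 47.7 and 76 RPKM in the dorsal midbrain, against 71.3, 48.2 and 90.7 RPKM in the alar plate. Otx2 and Pax7 were thus present in both groups, which overlapped for both genes. En1, a gene of the midbrain-hindbrain junction (the isthmus), measured 0.456, 0.799 and 0.49 RPKM in the dorsal midbrain, against 4.43, 2.79 and 0.405 RPKM in the alar plate. Its level was thus highest in alar plate 1 and 2 and was not shared by alar plate 3. The isthmus gene Pax5, named after its values were seen, set alar plate 1 apart: it was at 0 in the 3 dorsal midbrain libraries, against 16.8, 2.09 and 0 RPKM in the alar plate.

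With limma across all 12950 genes, 9 genes passed an adjusted p of 0.05 (0.0695% of those tested), 7 of them higher (0.0541%) and 2 lower (0.0154%) in the dorsal midbrain, each with an adjusted p of 0.0456. At an unadjusted p under 0.05 there were 1337 genes. The groups did not overlap, all 3 libraries of a group lying above all 3 of the other, for 1721 genes higher in the dorsal midbrain (13.3%) and 1001 lower (7.73%), or 21.0% in either direction. That surplus of higher genes depended on scaling, with 1277 higher and 1289 lower after quantile normalization, and 1370 and 1263 with median-ratio scaling. Without dorsal midbrain 3 and alar plate 3 the same fit called 4721 genes (36.5%), 2651 higher (20.5%) and 2070 lower (16.0%). That fit leaves out the library farthest from its pair in each group, which by construction makes the spread small. In a fit of all 15 libraries, whose spread comes from all 5 regions, 257 genes were called (1.98%), 195 of them higher (1.51%) and 62 lower (0.479%). With a pseudocount of 0.5, with voom on the recovered reads, or without any 1 library other than alar plate 3, no gene was called, so the calls below hold for this fit and not for those. The counts rest on which libraries set the spread, and levels are given per library below.

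Wnt ligands made up 3 of the 7 genes that rose. Wnt1, the ligand of the midbrain roof plate and isthmus, measured 6.26, 9.54 and 5.61 RPKM in the dorsal midbrain, against 0.149, 0.325 and 0 RPKM in the alar plate. These values rest on 179, 289 and 160 reads in the dorsal midbrain, against 5, 10 and 0 reads in the alar plate. Wnt1 was thus well above the read floor in every dorsal midbrain library and close to it in every alar plate library, with a difference of 2.79 (SE 0.22, limma adjusted p = 0.0456), and of 2.83 without the libraries numbered 3. Wnt2b measured 4.52, 5.15 and 5.64 RPKM in the dorsal midbrain, against 0.819, 0.459 and 0.133 RPKM in the alar plate (difference 2.08, SE 0.21). Wnt9a, the chromosomal neighbour of Wnt3a in RefSeq, measured 3.67, 4.15 and 4 RPKM in the dorsal midbrain, against 0.58, 0.0941 and 0.515 RPKM in the alar plate (difference 1.84, SE 0.19). In these 3 ligands the apart libraries kept to their own group. All 3 reached 1 RPKM in the dorsal midbrain alone, so the filter by itself fixed that order.

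Other dorsal midline ligands were high in alar plate 3 as well. Wnt3 measured 12.3, 15 and 8.03 RPKM in the dorsal midbrain, against 0.822, 1.92 and 7.57 RPKM in the alar plate, with a difference of 1.80 (SE 0.55, limma adjusted p = 0.435) that became 2.66 without the libraries numbered 3. Wnt3a measured 1.03, 1.32 and 1.28 RPKM in the dorsal midbrain, against 0.0257, 0.0282 and 0.857 RPKM in the alar plate. Rspo1, an R-spondin that amplifies Wnt signalling, measured 8.35, 12.7 and 8.65 RPKM in the dorsal midbrain, against 0.152, 0.125 and 6.72 RPKM in the alar plate. All 3 genes split the alar plate in the same way, low in libraries 1 and 2 and close to the dorsal midbrain in library 3. Wnt7a went the other way without separating the groups, at 5.59, 3.56 and 2.12 RPKM in the dorsal midbrain, against 9.57, 9.1 and 4.77 RPKM in the alar plate.

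**Figure D2:**
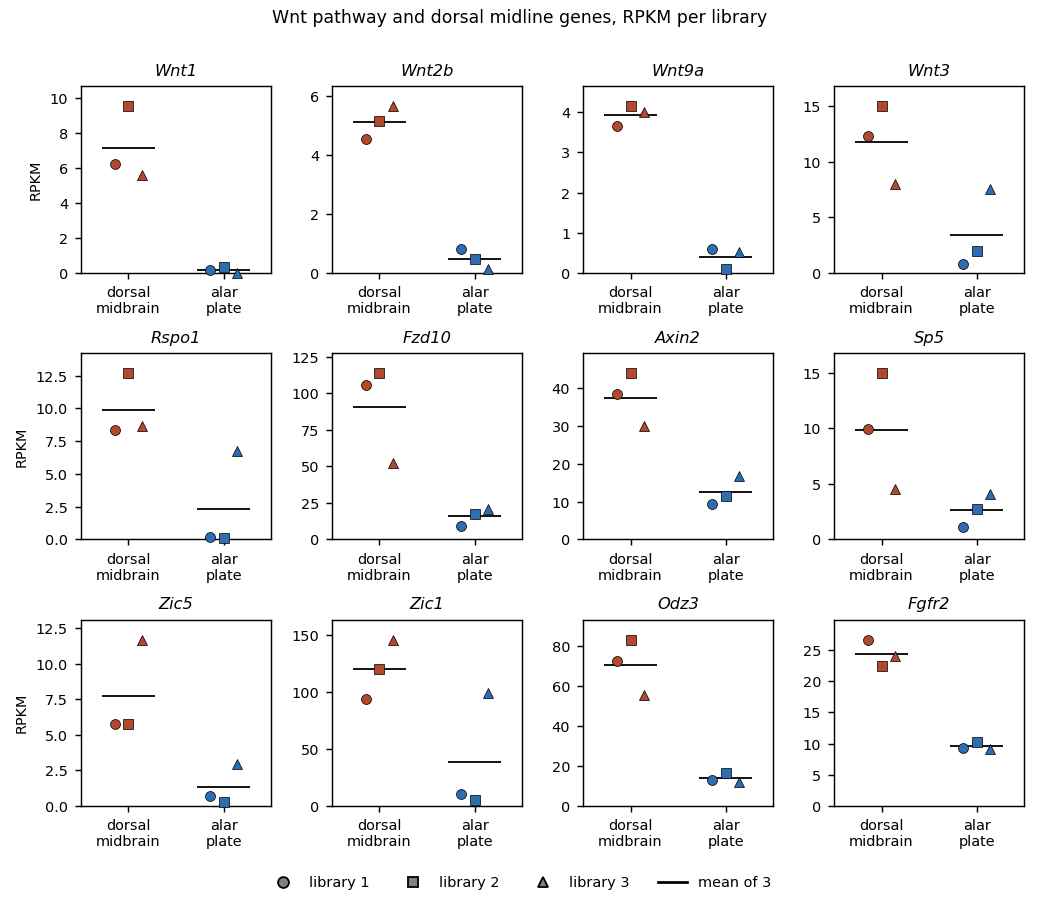
RPKM of 12 genes in each library, on linear axes from 0, with circles, squares and triangles for libraries 1, 2 and 3 and a bar for the mean of 3. Wnt1, Wnt2b, Wnt9a, Odz3 and Fgfr2 separate the groups with wide gaps. For Wnt3, Rspo1, Zic5 and Zic1, alar plate 3 lies far above alar plate 1 and 2.

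Among receptors and feedback genes of the Wnt pathway, values lay above the alar plate in every dorsal midbrain library for several, though none was called in the 6 libraries. In canonical signalling, Wnt binding to a Frizzled receptor and an LRP co-receptor stabilises beta-catenin, which acts with TCF/LEF factors on target genes such as Axin2. The receptor gene Fzd10 measured 106, 114 and 52.2 RPKM in the dorsal midbrain, against 8.99, 17.7 and 20.6 RPKM in the alar plate, with a difference of 2.45 (SE 0.40, limma adjusted p = 0.145). In the 15-library fit its adjusted p was 0.0418. Fzd10 was the only Frizzled gene tested whose groups did not overlap. Fzd1, for comparison, measured 38.9, 37.7 and 48.6 RPKM in the dorsal midbrain, against 67.5, 75.5 and 38.2 RPKM in the alar plate.

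Axin2, a negative feedback target, measured 38.4, 44.1 and 30 RPKM in the dorsal midbrain, against 9.42, 11.4 and 16.7 RPKM in the alar plate (difference 1.53, SE 0.24, limma adjusted p = 0.136). Nkd1, another feedback inhibitor, measured 20, 25.5 and 21.7 RPKM in the dorsal midbrain, against 6.84, 6.22 and 19.2 RPKM in the alar plate. Sp5, a zinc finger factor and direct Wnt target, measured 9.99, 15 and 4.53 RPKM in the dorsal midbrain, against 1.14, 2.74 and 4.05 RPKM in the alar plate. The groups did not overlap for any of these 3 genes, and for Nkd1 and Sp5 the libraries numbered 3 nearly met. The beta-catenin gene Ctnnb1 was high in both groups, at 636, 660 and 474 RPKM in the dorsal midbrain, against 362, 361 and 454 RPKM in the alar plate. Kremen1, the gene of a receptor for the Dkk inhibitors of Wnt signalling, measured 9.11, 9.04 and 8.69 RPKM in the dorsal midbrain, against 4.53, 4.37 and 5.17 RPKM in the alar plate. Kremen1 values were tight within each group and included both apart libraries. Of 42 genes tested on the pathway list (53 listed, without the roof plate ligands), none was called in the 6 libraries. A positive difference was found for 30, with a median of 0.28 over the list, and 10 did not overlap upward and none downward. Over all genes tested, 7189 of 12950 were positive, with a median of 0.04, and 13.3% did not overlap upward and 7.73% downward.

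Another called gene, listed as Gm12824 and named Trabd2b in RefSeq, belongs beside this pathway, since its human protein TIKI2 is a membrane protease that cleaves Wnt ligands. It measured 3.31, 3.46 and 2.76 RPKM in the dorsal midbrain, against 0.328, 0.0957 and 0.408 RPKM in the alar plate (difference 1.71, SE 0.17, limma adjusted p = 0.0456). It was in no list and was looked up after it had been called.

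The promoter of Sp5 is shown because it is the Wnt target whose RefSeq window, 250 bases before to 50 after the start in GRCm38.p6, held the TCF/LEF letters CTTTGA, in capitals, at 2 places. Its window is chr2:70474673-70474972, plus strand.
Sp5: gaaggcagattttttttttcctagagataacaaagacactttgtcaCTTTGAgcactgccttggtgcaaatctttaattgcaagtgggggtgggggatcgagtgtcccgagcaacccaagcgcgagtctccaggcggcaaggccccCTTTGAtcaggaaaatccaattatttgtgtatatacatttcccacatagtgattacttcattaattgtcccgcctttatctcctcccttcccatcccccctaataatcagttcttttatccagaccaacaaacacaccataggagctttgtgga
The matches begin at -204 and -104 from the start. Searched on both strands, CTTTGA was found in 7 of the 27 Wnt pathway genes with a promoter (25.9%) and in 1348 of 9892 tested genes with one (13.6%). Among the genes whose groups did not overlap, it was in 12.3% of promoters of those higher in the dorsal midbrain and in 16.5% of those lower. The letters were in none of the 7 promoters found for the 9 called genes, which says nothing of sites elsewhere.

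Genes of the roof plate and dorsal midline, a list that holds Wnt1 and Wnt2b themselves, mostly had positive differences. Of 23 tested (31 listed), 21 had a positive difference, with a median of 1.68. For 13 the groups did not overlap upward and for 1 downward, beside 13.3% and 7.73% of all genes. Wnt1 and Wnt2b were the 2 called. Both reached 1 RPKM in the dorsal midbrain alone, and for such members the filter fixed the direction and the lack of overlap. Without the libraries numbered 3, 20 were called higher and 1 lower, beside 20.5% and 16.0% of all genes. The summed level of the list was 365, 426 and 433 RPKM in the dorsal midbrain, against 86.1, 62.2 and 421 RPKM in the alar plate, so the sum in alar plate 3 was at the dorsal midbrain's level. The median deviation of the members from their mean was 0.70, 0.73 and 0.89 in the dorsal midbrain, against -0.91, -1.19 and 0.16 in the alar plate, so the typical member was lower in alar plate 3 than in the dorsal midbrain. Gdf7, a roof plate BMP-family ligand, measured 2.08, 3.7 and 1.85 RPKM in the dorsal midbrain, against 0, 0.0536 and 0 RPKM in the alar plate, and had an adjusted p of 0.0695 with limma. Lmx1b, a LIM-homeobox factor of the roof plate and isthmus, measured 2.49, 3.09 and 2.96 RPKM in the dorsal midbrain, against 0.445, 0.183 and 0 RPKM in the alar plate (adjusted p = 0.0525 with limma). The called long noncoding RNA C130021I20Rik overlaps Lmx1b in RefSeq, and without a stated strand their shared reads cannot be told apart. It measured 3.95, 4.17 and 3.14 RPKM in the dorsal midbrain, against 0.488, 0.267 and 0.0999 RPKM in the alar plate (difference 1.89, SE 0.18). In the ventral midbrain the same RNA averaged 95.7 ± 3.88 RPKM (SD, n = 3), far above both groups compared here. For Gdf7, Lmx1b and C130021I20Rik every dorsal midbrain library lay above every alar plate library, alar plate 3 included. As these 3 genes reached 1 RPKM in the dorsal midbrain alone, this too followed from the filter.

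The Zic zinc finger genes, which mark dorsal neural tissue, behaved like Wnt3 and Rspo1. Zic1 measured 93.8, 120 and 146 RPKM in the dorsal midbrain, against 10.5, 5.29 and 99.5 RPKM in the alar plate, so that the groups overlapped and the difference of 2.62 had an SE of 0.95. Zic4 overlapped in the same way, at 22, 24.3 and 33.9 RPKM in the dorsal midbrain, against 1.79, 0.365 and 25.1 RPKM in the alar plate. Zic5 did not overlap, at 5.74, 5.78 and 11.7 RPKM in the dorsal midbrain, against 0.71, 0.259 and 2.95 RPKM in the alar plate. For these 3 genes, alar plate 3 was the high library of its group. Msx1, a homeobox target of BMP signalling, measured 6.3, 7.59 and 6.74 RPKM in the dorsal midbrain, against 1.88, 0.396 and 2.5 RPKM in the alar plate (difference 1.70, SE 0.34, limma adjusted p = 0.247). Atoh1, the dorsal proneural factor of the hindbrain, was at or below 0.0789 RPKM in all 6 libraries.

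Transcription factors of the tectum divided into those that separated the groups and those that did not. Pax3 measured 42.4, 40.1 and 31 RPKM in the dorsal midbrain, against 10.4, 16.3 and 5.69 RPKM in the alar plate (difference 1.81, SE 0.34, limma adjusted p = 0.212). Mab21l2, needed for eye and midbrain growth, measured 93.1, 96.9 and 65.9 RPKM in the dorsal midbrain, against 35.3, 47 and 26.5 RPKM in the alar plate. Tal2, a bHLH factor required for midbrain GABAergic neurons, measured 185, 181 and 133 RPKM in the dorsal midbrain, against 101, 79.7 and 35.4 RPKM in the alar plate. In each of these genes the libraries numbered 3 were the lowest of their groups, and the groups still did not overlap. Gsx1, a homeobox factor of neuronal progenitors, met at its edge, at 18.6, 20.4 and 10.5 RPKM in the dorsal midbrain, against 8.78, 7.99 and 10.3 RPKM in the alar plate. Of 28 tectal factors tested (30 listed), 18 were positive. For 6 the groups did not overlap upward and for none downward, beside 13.3% and 7.73% of all genes. The median was 0.36, or 0.09 without the libraries numbered 3.

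Factors of tectal neurons overlapped between the groups. Barhl2 measured 48.4, 55.4 and 29.5 RPKM in the dorsal midbrain, against 41.6, 53.5 and 35.8 RPKM in the alar plate. Pou4f1, a POU factor of tectal projection neurons, measured 71.7, 75.6 and 14.1 RPKM in the dorsal midbrain, against 60.2, 74.8 and 33.3 RPKM in the alar plate. Tfap2b measured 95, 102 and 54.6 RPKM in the dorsal midbrain, against 113, 149 and 31.3 RPKM in the alar plate. For Barhl2 and Pou4f1 the spread within a group was wider than any gap between the groups. Gata3, a factor of midbrain GABAergic neurons, measured 14.1, 20.3 and 33.5 RPKM in the dorsal midbrain, against 44.5, 34.2 and 10.4 RPKM in the alar plate, a difference of -0.24 that was -1.16 without the libraries numbered 3 and called there.

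Several components of the hedgehog pathway had higher values in every dorsal midbrain library, and its readout genes did not. Hedgehog proteins relieve the inhibition of Smo by Ptch1, and Gli factors then act on targets that include Gli1 and Ptch1. Gas1, a co-receptor, measured 27.9, 32.4 and 15.5 RPKM in the dorsal midbrain, against 6.57, 7.64 and 8.29 RPKM in the alar plate (difference 1.57, SE 0.27, limma adjusted p = 0.173). Gli2 measured 10.6, 11.1 and 8.09 RPKM in the dorsal midbrain, against 4.37, 4.37 and 3.3 RPKM in the alar plate. Gli3, a Gli factor that acts mainly as a repressor, measured 27, 24.2 and 17.9 RPKM in the dorsal midbrain, against 13.4, 13.3 and 4.15 RPKM in the alar plate. The co-receptor gene Cdon overlapped through dorsal midbrain 3, at 36.6, 42.7 and 7.53 RPKM in the dorsal midbrain, against 8.2, 10.1 and 3.07 RPKM in the alar plate. Gli1 had the opposite sign and overlapped, at 1.01, 0.65 and 2.35 RPKM in the dorsal midbrain, against 4.29, 2.22 and 6.26 RPKM in the alar plate. Ptch1 measured 6.2, 5.13 and 14.1 RPKM in the dorsal midbrain, against 15.5, 11.8 and 4.19 RPKM in the alar plate. Of 12 pathway genes tested (14 listed), 5 did not overlap upward and none downward, beside 13.3% and 7.73% of all genes. None was called in the 6 libraries.

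Fgfr2, a receptor for fibroblast growth factors, was called and was tight in both groups. It measured 26.7, 22.5 and 24.1 RPKM in the dorsal midbrain, against 9.35, 10.2 and 9.12 RPKM in the alar plate, with a difference of 1.27 (SE 0.13, limma adjusted p = 0.0456). The feedback inhibitor Spry2 went the other way, at 3.83, 3.8 and 4.12 RPKM in the dorsal midbrain, against 9.2, 7.42 and 6.62 RPKM in the alar plate (difference -0.82, SE 0.16, limma adjusted p = 0.215). The ETS factor Etv5, an FGF target, measured 1.06, 0.915 and 0.795 RPKM in the dorsal midbrain, against 4.59, 2.01 and 1.22 RPKM in the alar plate. Another feedback inhibitor gene, Spred1, was on the receptor's side, at 22.6, 20.6 and 19.3 RPKM in the dorsal midbrain, against 18.5, 17.2 and 9.69 RPKM in the alar plate. In the FGF pathway and isthmus list, 13 of 25 genes were tested. Fgfr2 and Spred1 did not overlap upward and Spry2 and Etv5 downward, beside 13.3% and 7.73% of all genes. The median was -0.17. The isthmus ligand gene Fgf8 was at 0 in the dorsal midbrain, against 0.776, 0 and 1.52 RPKM in the alar plate.

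In the BMP pathway, several receptor and Smad genes separated the groups by small amounts. Bmpr1a, a type I receptor, measured 23.1, 20.6 and 15.8 RPKM in the dorsal midbrain, against 14.7, 11.6 and 11.6 RPKM in the alar plate. Id4, an inhibitor of bHLH factors, went the other way, at 59.8, 59.1 and 45.7 RPKM in the dorsal midbrain, against 116, 147 and 148 RPKM in the alar plate (difference -1.31, SE 0.17, limma adjusted p = 0.0835). Its paralog Id3 measured 71.8, 77.2 and 54.2 RPKM in the dorsal midbrain, against 21.8, 18.4 and 73.3 RPKM in the alar plate. Id4 separated the groups, and Id3 did not, with alar plate 3 at the dorsal midbrain's level. Of 22 BMP pathway genes tested (25 listed), 7 did not overlap upward and 2 downward, with a median of 0.29, beside 13.3% and 7.73% of all genes.

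Cell surface and guidance genes included the most abundant of the called genes. Odz3, which RefSeq lists as a synonym of Tenm3, codes for a teneurin, a transmembrane adhesion protein that guides target choice of visual axons. It measured 72.6, 83.1 and 55.4 RPKM in the dorsal midbrain, against 13.1, 16.5 and 12 RPKM in the alar plate (difference 2.25, SE 0.20, limma adjusted p = 0.0456). Its gene model is long, at 11078 bases, and with the length trend removed it was not called (limma adjusted p = 0.132). RefSeq gives Odz3 also as a synonym of Tenm2, which the table holds separately as Odz2. Slit2, a repellent ligand for Robo receptors, measured 13.5, 12.4 and 17.3 RPKM in the dorsal midbrain, against 5.1, 4.54 and 5.38 RPKM in the alar plate (difference 1.35, SE 0.16, limma adjusted p = 0.0616). Slit1 measured 26.2, 35 and 18.5 RPKM in the dorsal midbrain, against 9.12, 10.3 and 5.49 RPKM in the alar plate. Both Slit genes separated the groups, whereas their receptor gene Robo1 overlapped, at 51.5, 48.5 and 62.7 RPKM in the dorsal midbrain, against 87.7, 94.1 and 26.1 RPKM in the alar plate. Pcdh18, a protocadherin, measured 30.5, 28.5 and 28.3 RPKM in the dorsal midbrain, against 13.1, 11.7 and 8.96 RPKM in the alar plate (difference 1.31, SE 0.16, limma adjusted p = 0.0687). Netrin-1 was on the other side: Ntn1 measured 3.09, 2.12 and 6.86 RPKM in the dorsal midbrain, against 17.5, 15.4 and 8.52 RPKM in the alar plate. Among 38 guidance genes tested (40 listed), 9 did not overlap upward and 1, Ntn1, downward, beside 13.3% and 7.73% of all genes. Their median was 0.11, or 0.01 with the length trend removed. Without the libraries numbered 3 it was -0.11, with 9 called higher and 14 lower, beside 20.5% and 16.0% of all genes. The list summed to 438 RPKM in alar plate 3, the lowest of the 6 libraries.

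Genes of cell division, summed over their list, were highest in dorsal midbrain 1 and 2. Mki67, the marker of cycling cells, measured 75.8, 63.2 and 33.6 RPKM in the dorsal midbrain, against 26.6, 23.5 and 17.2 RPKM in the alar plate (difference 1.27, SE 0.32, limma adjusted p = 0.38). Top2a, the topoisomerase that untangles chromosomes, measured 145, 125 and 62.8 RPKM in the dorsal midbrain, against 49.7, 46.2 and 62.7 RPKM in the alar plate. Ccnb2, a mitotic cyclin, measured 44.3, 40.8 and 21.4 RPKM in the dorsal midbrain, against 15, 15.4 and 44.3 RPKM in the alar plate. Between libraries 1 and 2 of each group the dorsal midbrain was the higher for all 3 genes, while dorsal midbrain 3 lay between those pairs and alar plate 3 ranged from the lowest value of Mki67 to a value of Ccnb2 that equalled the highest. Of the 36 mitosis genes, all tested, 36 had a positive difference, with a median of 0.73. The groups did not overlap upward for 9, beside 13.3% of all genes, and none was called in the 6 libraries. With the length trend removed, 36 stayed positive with a median of 0.72, and the difference of Mki67, of 10175 bases, was 1. How far the 9 rest on the length trend of alar plate 3 was not tested. Without the libraries numbered 3, 36 were called higher with a median of 1.28, and 20.5% of all genes were called higher. The summed level of the list was 1390, 1260 and 653 RPKM in the dorsal midbrain, against 527, 499 and 899 RPKM in the alar plate.

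DNA replication genes showed the same order of libraries. Mcm2, a subunit of the replicative helicase, measured 69.2, 64.6 and 38.3 RPKM in the dorsal midbrain, against 27.1, 25.4 and 36.4 RPKM in the alar plate. Rrm2, which supplies deoxynucleotides, measured 110, 99 and 37.1 RPKM in the dorsal midbrain, against 32.4, 32.8 and 88 RPKM in the alar plate. All 34 genes of the list were positive, with a median of 0.61, yet only 3 did not overlap, no larger a share than the 13.3% of all genes, and none was called. Their sum was 1620, 1500 and 783 RPKM in the dorsal midbrain, against 670, 644 and 1070 RPKM in the alar plate. The Notch target Hes5 overlapped through dorsal midbrain 3, at 148, 151 and 68.9 RPKM in the dorsal midbrain, against 54.8, 60.2 and 89.2 RPKM in the alar plate. Progenitor genes were thus not uniformly shifted: Sox2 measured 50.7, 50.1 and 34.2 RPKM in the dorsal midbrain, against 41.2, 37.9 and 107 RPKM in the alar plate.

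The promoters of 3 mitosis genes are shown because every member of that list had a positive difference and such genes are known for shared cell-cycle elements, the CCAAT box and the cell cycle genes homology region (CHR). Capitals mark CCAAT and the CHR letters TTTGAA on either strand in the RefSeq windows of GRCm38.p6, each on the minus strand: chr11:99024140-99024439 for Top2a, chr7:135716330-135716629 for Mki67 and chr9:70421505-70421804 for Ccnb2.
Top2a: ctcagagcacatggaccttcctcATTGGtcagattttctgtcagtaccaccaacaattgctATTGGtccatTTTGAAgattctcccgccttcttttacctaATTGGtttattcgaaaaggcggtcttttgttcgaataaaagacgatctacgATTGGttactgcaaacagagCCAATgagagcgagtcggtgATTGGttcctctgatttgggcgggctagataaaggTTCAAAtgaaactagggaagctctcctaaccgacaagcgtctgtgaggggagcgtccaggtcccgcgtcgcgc
Mki67: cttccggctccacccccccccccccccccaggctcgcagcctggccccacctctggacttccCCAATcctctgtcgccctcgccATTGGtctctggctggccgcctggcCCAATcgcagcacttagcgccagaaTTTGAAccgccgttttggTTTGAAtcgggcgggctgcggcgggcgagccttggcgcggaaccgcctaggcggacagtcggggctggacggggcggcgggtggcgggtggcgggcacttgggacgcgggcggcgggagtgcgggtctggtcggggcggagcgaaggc
Ccnb2: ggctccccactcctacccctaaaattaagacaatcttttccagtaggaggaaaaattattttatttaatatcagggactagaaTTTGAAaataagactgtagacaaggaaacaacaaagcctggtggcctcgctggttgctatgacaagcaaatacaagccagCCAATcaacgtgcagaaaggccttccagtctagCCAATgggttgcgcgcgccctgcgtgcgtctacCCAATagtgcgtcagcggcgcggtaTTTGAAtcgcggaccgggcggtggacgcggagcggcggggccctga
In Mki67 a pair of CHR matches begins at -116 and -98, downstream of CCAAT boxes at -188, -166 and -141. In Ccnb2 a CHR match at 5, just past the start, follows CCAAT boxes at -87, -54 and -21. Both motifs together were in 20 of the 31 mitosis genes with a promoter (64.5%), against 584 of 9892 tested genes (5.9%), and the CHR alone was in 77.4% against 13.9%. Among the genes whose groups did not overlap, both motifs were in 8.31% of promoters of those higher in the dorsal midbrain and in 4.59% of those lower. A match in these letters is a description of the window and not of binding.

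**Figure D3:**
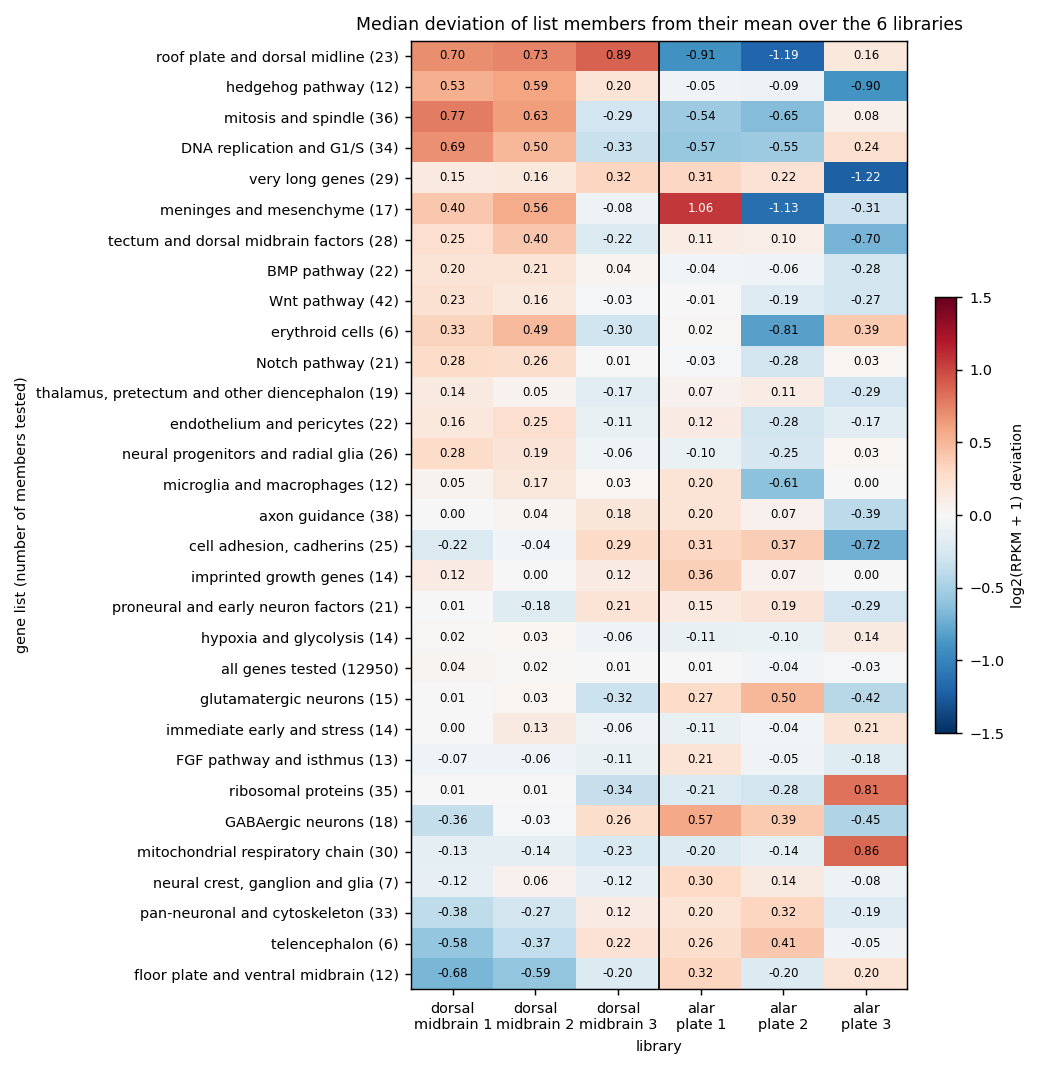
Median deviation of the tested members of each gene list from their own mean over the 6 libraries, in log2(RPKM + 1), with dorsal midbrain libraries left of the line and alar plate libraries right of it (red above, blue below the mean). For mitosis and spindle the values are 0.77, 0.63 and -0.29 in the dorsal midbrain and -0.54, -0.65 and 0.08 in the alar plate. The roof plate row is positive in all 3 dorsal midbrain libraries and also in alar plate 3.

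On the alar plate's side, Nkx2-2 and Arl4d were the genes that fell in the dorsal midbrain. Nkx2-2, a homeodomain factor of ventral progenitor domains and of the forebrain boundary zone, measured 0, 0 and 0.306 RPKM in the dorsal midbrain, against 7.29, 4.16 and 7.94 RPKM in the alar plate. Those values rest on 0, 0 and 9 reads in the dorsal midbrain, against 253, 132 and 207 reads in the alar plate. Nkx2-2 was therefore at or near 0 throughout the dorsal midbrain and plain in every alar plate library, with a difference of -2.73 (SE 0.25, limma adjusted p = 0.0456). In the forebrain libraries it averaged 18.8 ± 2.95 RPKM (SD, n = 3), in the hindbrain 6.33 ± 0.743 RPKM and in the ventral midbrain 4.57 ± 0.667 RPKM. Arl4d, an ARF-like GTPase, measured 2.04, 1.21 and 1.52 RPKM in the dorsal midbrain, against 11.4, 9.22 and 8.77 RPKM in the alar plate (difference -2.07, SE 0.18).

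A larger set of genes was low in the dorsal midbrain without being called. Six3, a homeobox factor of the anterior forebrain, measured 0, 0.0431 and 5.5 RPKM in the dorsal midbrain, against 23.3, 13.6 and 11.3 RPKM in the alar plate (difference -3.11, SE 0.73, limma adjusted p = 0.35). The antisense transcript Six3os1 overlaps it, and without a stated strand their shared reads cannot be told apart. Six3os1 measured 0.0717, 0.0113 and 2.59 RPKM in the dorsal midbrain, against 20.6, 10.3 and 6.37 RPKM in the alar plate. The neuropeptide gene Npy measured 0.268, 0.253 and 9.94 RPKM in the dorsal midbrain, against 30, 14 and 11.2 RPKM in the alar plate. All 3 were near 0 in dorsal midbrain 1 and 2 and clearly present in dorsal midbrain 3, which remained below the alar plate. Shisa3, whose family holds back Wnt and FGF receptors in frog embryos, measured 0.112, 0.106 and 0 RPKM in the dorsal midbrain, against 41.4, 24.1 and 1.37 RPKM in the alar plate. Here the variation lay in the alar plate, and the difference of -3.67 had an SE of 0.99.

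The heparan sulfate enzymes were steadier. Sulf1, an extracellular sulfatase, measured 0.505, 0.246 and 0.838 RPKM in the dorsal midbrain, against 6.68, 3.68 and 5.67 RPKM in the alar plate (difference -2.04, SE 0.24, limma adjusted p = 0.0616). Hs3st4, a sulfotransferase, measured 0.493, 0.52 and 0.378 RPKM in the dorsal midbrain, against 4.32, 7.26 and 3.88 RPKM in the alar plate (difference -2.03, SE 0.23, limma adjusted p = 0.0525). Fgfbp3, an FGF-binding protein, measured 6.94, 6.46 and 8.96 RPKM in the dorsal midbrain, against 31.4, 32.1 and 20 RPKM in the alar plate (difference -1.75, SE 0.22, limma adjusted p = 0.0695). For each, every dorsal midbrain library lay below every alar plate library. Crym, a thyroid hormone-binding crystallin, measured 6.24, 4.39 and 2.04 RPKM in the dorsal midbrain, against 45.8, 41 and 17.7 RPKM in the alar plate. C1ql4, a secreted C1q-like protein, measured 5.92, 4.99 and 4.88 RPKM in the dorsal midbrain, against 36.8, 40.7 and 11.2 RPKM in the alar plate. Pdlim3, an actin-associated LIM protein, was instead highest in alar plate 3, at 0.772, 0.632 and 1.91 RPKM in the dorsal midbrain, against 9.89, 5.99 and 30.9 RPKM in the alar plate. Th, the reporter's gene, was low in both groups, at 0.605, 0.571 and 0.793 RPKM in the dorsal midbrain, against 2.96, 1.64 and 2.21 RPKM in the alar plate.

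**Figure D4:**
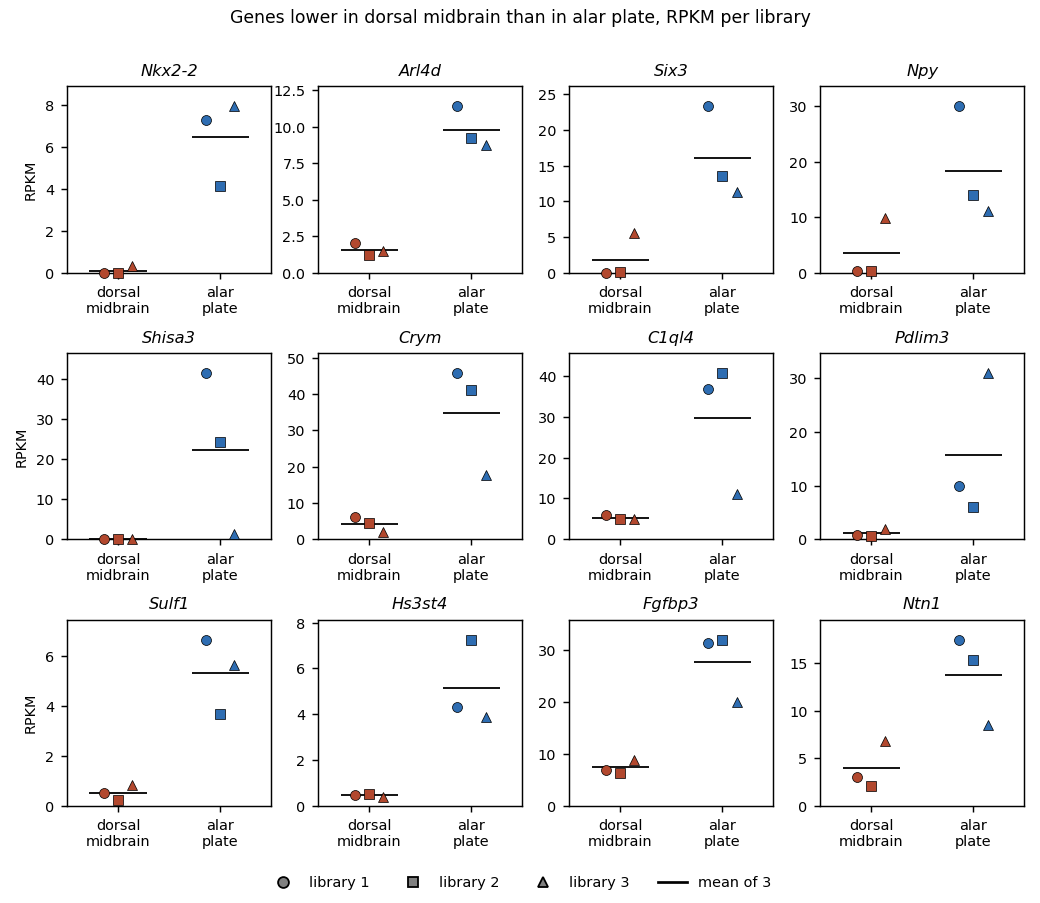
RPKM of 12 genes with lower values in the dorsal midbrain than in the alar plate, per library, on linear axes from 0 (circles, squares and triangles for libraries 1, 2 and 3, bar for the mean of 3). Nkx2-2 and Arl4d are the called genes. Dorsal midbrain 3 is raised for Six3 and Npy, and alar plate 3 is far below its group for Shisa3.

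Neuronal genes were mostly lower in the dorsal midbrain. Stmn2, a microtubule regulator of growing neurites, measured 253, 277 and 331 RPKM in the dorsal midbrain, against 357, 404 and 417 RPKM in the alar plate (difference -0.46, SE 0.17, limma adjusted p = 0.458). Nsg1, a neuronal endosomal protein, measured 93.4, 107 and 154 RPKM in the dorsal midbrain, against 171, 194 and 211 RPKM in the alar plate. Dcx, a marker of young migrating neurons, overlapped through alar plate 3, at 105, 106 and 154 RPKM in the dorsal midbrain, against 183, 196 and 58.4 RPKM in the alar plate. In all 3 genes dorsal midbrain 3 was the highest of its group. Of 33 pan-neuronal genes tested (35 listed), 28 had a negative difference, with a median of -0.38. For 9 the groups did not overlap downward and for none upward, beside 7.73% and 13.3% of all genes. None was called in the 6 libraries. Without the libraries numbered 3, 29 were called lower and 1 higher, beside 16.0% and 20.5% of all genes.

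Genes of transmitter use were divided. Of 15 glutamatergic genes tested (18 listed), 7 were positive and 8 negative, with 1 not overlapping upward and 4 downward. Of 18 GABAergic genes tested (21 listed), 6 were positive and 12 negative, with 1 not overlapping upward and 4 downward, and Nkx2-2 was the called one. Over all genes, 13.3% did not overlap upward and 7.73% downward. The vesicular glutamate transporter gene Slc17a6 measured 29.2, 27.1 and 32.8 RPKM in the dorsal midbrain, against 42.6, 50.5 and 35.8 RPKM in the alar plate (difference -0.51, SE 0.17, limma adjusted p = 0.435). Gad1, which makes GABA, overlapped, at 12.3, 14.7 and 17.9 RPKM in the dorsal midbrain, against 23.2, 22.8 and 11 RPKM in the alar plate. Lhx9, a LIM-homeobox factor of dorsal neurons, measured 48.8, 44.9 and 40.5 RPKM in the dorsal midbrain, against 64.3, 75.3 and 52.6 RPKM in the alar plate. Slc17a6 and Lhx9 separated the groups by narrow gaps, and Gad1 did so only with alar plate 3 left out. For the neuronal adhesion gene Chl1, dorsal midbrain 3 was at the level of the alar plate. Chl1 measured 3.39, 3.4 and 24.8 RPKM in the dorsal midbrain, against 25.4, 29.2 and 22 RPKM in the alar plate.

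Several patterning genes were highest in the libraries numbered 3. Tcf7l2, a Wnt-responsive factor strongly expressed in thalamus and pretectum, measured 22.9, 18.9 and 378 RPKM in the dorsal midbrain, against 57.9, 80.4 and 215 RPKM in the alar plate. Pax6 measured 1.81, 0.194 and 44.9 RPKM in the dorsal midbrain, against 1.34, 0.361 and 23.9 RPKM in the alar plate. Gbx2, a gene of the thalamus and anterior hindbrain, measured 0.0776, 0.11 and 14.1 RPKM in the dorsal midbrain, against 0.0989, 0 and 73 RPKM in the alar plate. All 3 genes were raised in both apart libraries, more so in dorsal midbrain 3 for Tcf7l2 and Pax6 and in alar plate 3 for Gbx2.

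Other genes marked mainly 1 of the apart libraries. Dorsal midbrain 3 alone held Nr4a2, a nuclear receptor, at 32.6 RPKM, against 0.781 to 1.73 RPKM in the other 5 libraries. It also had the lowest Meis2, a homeobox cofactor of the tectum, with 4.86 RPKM against 59.9 and 56.3 RPKM in dorsal midbrain 1 and 2. Its Ccnd1, a G1 cyclin, was 51.2 RPKM, against 284 and 298 RPKM in that pair. Dorsal midbrain 3 therefore lacked much of the Meis2 and Ccnd1 seen in its group. Alar plate 3 alone held the choroid plexus gene Ttr, at 89.3 RPKM. Other choroid plexus markers were divided there. Clic6 was at 2.44 RPKM, against at most 0.135 RPKM in the other libraries, and Folr1 at 1.62 RPKM, against at most 1.32 RPKM. Kl was at 0.187 RPKM, against 0.788 RPKM in alar plate 1. Alar plate 3 had the most of the thalamic progenitor factor Olig3, at 51 RPKM, and of Sp9, at 28.6 RPKM. Dorsal midbrain 3 held less of these, at 3.72 and 3.69 RPKM, against at most 0.678 and 0.504 RPKM in the libraries numbered 1 and 2. Alar plate 3 also held forebrain genes near 0 in the other alar plate libraries, such as Tbr1 at 23.2 RPKM and Dlx1 at 20.2 RPKM, named after their values were seen. Over the 34 genes of the thalamus and diencephalon list, the summed level was 562, 566 and 884 RPKM in the dorsal midbrain, against 598, 673 and 800 RPKM in the alar plate. The median deviation of its 19 tested members was 0.14, 0.05 and -0.17 in the dorsal midbrain, against 0.07, 0.11 and -0.29 in the alar plate. The typical tested member was thus not raised in the libraries numbered 3. Over the 21 telencephalic genes the sum was 53.2, 54.6 and 97.4 RPKM in the dorsal midbrain, against 105, 106 and 157 RPKM in the alar plate. The median deviation of the 6 tested was -0.58, -0.37 and 0.22 in the dorsal midbrain, against 0.26, 0.41 and -0.05 in the alar plate. By that measure alar plate 3 was below alar plate 1 and 2. The part of these genes in the differences between the groups was not tested.

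**Figure D5:**
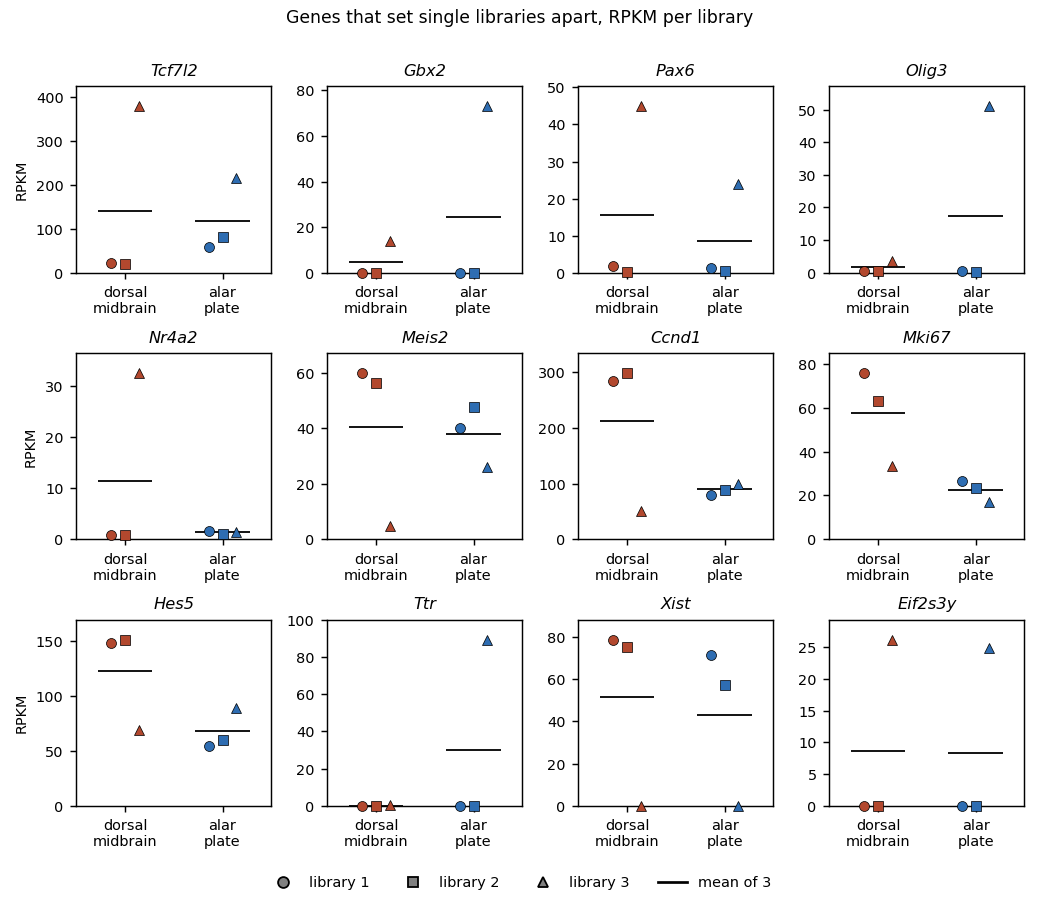
RPKM of 12 genes that set single libraries apart, on linear axes from 0 (circles, squares and triangles for libraries 1, 2 and 3, bar for the mean of 3). The triangles of both groups stand alone for Tcf7l2, Gbx2, Pax6, Xist and Eif2s3y, those of the dorsal midbrain for Nr4a2, Meis2 and Ccnd1, and those of the alar plate for Olig3 and Ttr.

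Gene groups of extreme length moved with alar plate 3. The 35 ribosomal protein genes, which are short, summed to 10800, 10900 and 8490 RPKM in the dorsal midbrain, against 9280, 8850 and 18300 RPKM in the alar plate. All 35 had a negative difference with a median of -0.20, which became 0.25 without the libraries numbered 3 and 0.01 when each library's length trend was removed. The 29 very long genes tested summed to 577, 563 and 652 RPKM in the dorsal midbrain, against 639, 620 and 211 RPKM in the alar plate, with medians of 0.49, -0.05 and 0.16 in the same order of fits. Both medians changed sign without the libraries numbered 3, the ribosomal one also with the trend removed, and both came closer to 0 with the trend removed. Single genes depended on that library too: Hipk2 measured 28.8, 29.6 and 27 RPKM in the dorsal midbrain, against 26.4, 25.5 and 1.04 RPKM in the alar plate.

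Markers of non-neural tissue varied between libraries in both groups. The collagen gene Col1a1, of meninges and mesenchyme, measured 21.7, 22.5 and 11.1 RPKM in the dorsal midbrain, against 38.3, 0.854 and 6.21 RPKM in the alar plate. All 22 genes of that list summed to 282, 260 and 141 RPKM in the dorsal midbrain, against 367, 117 and 200 RPKM in the alar plate. Alar plate 1 was thus richest and alar plate 2 poorest in these transcripts. Erythroid genes summed to 1720, 2170 and 1250 RPKM in the dorsal midbrain, against 1390, 895 and 2550 RPKM in the alar plate. Endothelial and pericyte genes summed to 167, 175 and 138 RPKM in the dorsal midbrain, against 165, 118 and 141 RPKM in the alar plate, and microglial genes to 38.9, 42.1 and 39.1 RPKM, against 42.9, 21 and 44 RPKM. The groups overlapped in each of these sums, and no gene of these lists was called. Genes of the dorsal midline such as Bmp7, at 7.23, 8.88 and 5.49 RPKM in the dorsal midbrain, against 10.9, 6.38 and 1.56 RPKM in the alar plate, are also made by meninges, and the part of that tissue was not tested.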

How the data were processed

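RNA-seq of mouse embryonic brain regions was deposited as 1 table of RPKM values, made by the authors, with 1 column for each of 15 samples. The submitters' processing notes name Bowtie and the genome build mm9. Annotation, counting, strand and filters are not given in these sources. No column was left unused.

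Dividing out the RPKM steps gave whole reads for 99.9% of 16612 genes, those detected in 10 or more libraries (tolerance 0.02 to 0.15 reads), which gave depths and gene lengths. Differences in log2(RPKM + 1) were tested over the 6 libraries alone by limma 3.58.1 under R 4.3.3, letting variance follow mean expression. Tests were two-sided, with Benjamini-Hochberg adjustment over 12950 genes and a threshold of 0.05. The fits were tested on simulated data.

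The comparison and gene lists were chosen with earlier results of these data known. Named genes were the 12 highest and 12 lowest differences with non-overlapping groups and at least 5 RPKM in the higher group, called genes, a fixed list, and the 5 largest deviations either way of each apart library. Other list members were chosen after their values were seen. Alternatives changed the pseudocount, filter, scaling, length trend, weights, libraries and model. Promoters came from RefSeq (GRCm38.p6), with 9892 genes matched by symbol. Some genes are not reported here.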

Additional observations from a re-analysis of the deposited data

How the results depend on the processing

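The number of genes called for dorsal midbrain against alar plate moved widely with the alternatives. The 9 called genes (7 higher, 2 lower) became 257 (195 and 62) with all 15 libraries, 6037 (3494 and 2543) with library weights, 4721 (2651 and 2070) without dorsal midbrain 3 and alar plate 3, and 3797 (2114 and 1683) with 15 libraries less those 2, the last chosen after seeing the data. Quantile normalization called 12 (7 and 5), median-ratio scaling 4 (2 and 2), and removal of the length trend 8 (7 and 1). None, 0 in either direction, was called with a pseudocount of 0.1 or 0.5, with no filter, with a filter of 5 RPKM, with voom on recovered reads, with the replicate block, or with a term for the libraries with low Xist, chosen after seeing the data. At an unadjusted p under 0.05 those settings held 1305, 1327, 1809, 907, 1325, 1135 and 1940 genes. The highest adjusted p of the 9 was 0.161, 0.0658, 0.066, 0.0571 (4 present), 0.151, 0.339 and 0.0609 there. All 9 were called with library weights and without the libraries numbered 3, 8 with all 15, 7 after quantile normalization, 4 with median-ratio scaling and 4 with the length trend removed. Odz3, Fgfr2 and Arl4d were among those not called with the trend removed (limma adjusted p = 0.132, 0.0807 and 0.0783). Leaving out 1 library gave 0 to 84 calls (0 to 50 higher, 0 to 34 lower). The 84 came without alar plate 3, and 0 without any other. Genes whose groups did not overlap numbered 1721 higher and 1001 lower, 1277 and 1289 after quantile normalization, 1370 and 1263 with median-ratio scaling, 1560 and 1124 with the length trend removed, 5392 and 4127 without the libraries numbered 3, and 1869 to 3319 and 1178 to 2328 with 1 library left out.

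Same-numbered libraries deviated from their group means with correlations of -0.0897, -0.193 and -0.223, below the 0.1 taken here as pairing, and the replicate block called 0 genes. No label ties a number to an embryo or pool. Number 3 was the Xist-low library in all 5 regions, and whether the numbers mark a shared source was not tested.

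Some differences changed sign, most of them small, and that of Nr4a2 (1.03) through dorsal midbrain 3. Without the libraries numbered 3, Pou4f1 was 0.13, Tfap2d -0.84, Barhl2 0.13, Nr4a2 -0.36 and Sox2 0.35, and with library weights 0.07, -0.92, 0.13, -0.20 and 0.32. Barhl2 was 0.02 after quantile normalization and 0.04 with the length trend removed, Xist was -0.18 with it removed, and Tfap2b was 0 (rounded) with a pseudocount of 0.1 or 0.5. With 1 library left out, the differences ran from -0.18 to 0.26 for Barhl2, -0.66 to 0.21 for Dcx, -0.43 to 0.03 for Emx2, -0.84 to 0.16 for Gata3, -0.08 to 0.63 for Hbb-bh1, -0.44 to 1.03 for Neurog2, -0.38 to 1.74 for Nr4a2, -0.71 to 0.46 for Pou4f1, -0.05 to 0.50 for Shox2, -0.57 to 0.16 for Sox2, -0.67 to 0.43 for Tfap2b, -0.55 to 0.66 for Tfap2d, -1.76 to 2.21 for Xist. The cause was not tested.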

Other observations

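Some genes outside the lists of midbrain patterning had levels that no comparison above used. The imprinted gene Ndn measured 123, 128 and 225 RPKM in the dorsal midbrain, against 257, 269 and 276 RPKM in the alar plate (difference -0.81, SE 0.25, limma adjusted p = 0.435). Its neighbour in locus, Snrpn, measured 53.7, 56.7 and 81 RPKM in the dorsal midbrain, against 84.5, 101 and 123 RPKM in the alar plate. Both separated the groups, with dorsal midbrain 3 nearest to the alar plate. Dlk1, an imprinted Notch-like ligand, overlapped through dorsal midbrain 3, at 2.04, 2.11 and 8.98 RPKM in the dorsal midbrain, against 12.1, 7.99 and 35.5 RPKM in the alar plate. The growth factor gene Igf2 measured 65.1, 67.9 and 41 RPKM in the dorsal midbrain, against 72.5, 13.2 and 24 RPKM in the alar plate, the same order of libraries as Col1a1. Grb10, which dampens growth factor receptors, lay on the other side, at 124, 117 and 81.8 RPKM in the dorsal midbrain, against 70.9, 55.2 and 59.3 RPKM in the alar plate. None of these 5 genes was called in the 6 libraries.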
